A study of Arabidopsis thaliana with 8 samples.

Results

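The 5 genes described here, AT1G12010, AT4G36430, AT5G20700, AT5G48210 and AT5G16920, were selected on the intensity values themselves, because an earlier fit of these same arrays had called them higher in inflorescences of the double heterozygote than in the control. Each has 1 probe set of its own on the array, so they are 5 of 13286 genes with such a probe set, 5 of the 22810 probe sets measured and 5 of the 15045 that passed a filter on low values. The study measured inflorescence RNA of the Ws accession of Arabidopsis thaliana on 8 Affymetrix ATH1 arrays, with 4 groups of 2. CON is the control, for which the labels name no genetic change. T13 carries a T-DNA inserted in AT3G47620 (TCP14), T14 carries one in AT1G69690 (TCP15), and HET is heterozygous at both genes, with 1 insertion in each. Whether T13 and T14 are homozygous is not stated in the labels, and each gene is represented by a single line, so an effect of an insertion cannot be told apart from other features of its line. All groups share the accession, a greenhouse kept at 18 °C, days of 16 h, compost as substrate, growth stage 6.0 and the pooling of 10 plants. One HET array carries the word repeat in its title, and separate plant pools for the 2 arrays of a group are not stated. The p-values therefore measure only how these arrays scatter, and that scatter may be technical.

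TCP14 and TCP15 belong to a plant family of transcription factors that act in the growth of organs and in the control of cell division. AT1G12010 encodes an ACC oxidase, an enzyme of the last step of ethylene synthesis, which turns the precursor ACC into the gaseous hormone. AT4G36430 encodes a class III peroxidase. Enzymes of this large plant family are secreted and use hydrogen peroxide to oxidise phenolic substrates, in cell walls among other places. The reference tables give no name for AT5G20700, AT5G48210 or AT5G16920, so no role is stated for them. An inflorescence holds flowers of many ages, and its anthers contain the tapetum, a nurse cell layer around the developing pollen.

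Intensity is a linear brightness in arbitrary units that was already on a common scale between arrays, and the level of 1 probe set cannot be set against that of another. Differences are given on the log2(intensity + 16) scale, which understates the change of dim genes. The difference between HET and CON chose the members, so it is described here without a test. T13 against CON and T14 against CON share the CON arrays with that choice, and HET against T13 or T14 shares the HET arrays, so these are also given as descriptions. The means of T13 and T14 do not enter the difference that chose the members. Their own difference was tested with limma, an adjusted p under 0.05 over all 15045 probe sets being a call. The spread and the filter rest on all 8 arrays, so the CON and HET arrays enter the SE of that test. In the same way the scatter of the T13 and T14 arrays enters the calls of HET against CON. The test is thus not fully independent of the choice. The fit to the T13 and T14 arrays alone is given beside it.

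One array and 1 marker set need to be known before the values. On HET replicate 1 the 5' probe set of the GAPDH control stood at 0.345 of the 3' one, a measure of RNA and labelling quality, against 0.0639 to 0.129 on the other 7 arrays. The excess of 3' signal was thus smallest on HET replicate 1. By this measure that array was the best, and the strong 3' excess was common to the other 7 arrays, both CON arrays included. This limit on RNA or labelling quality thus covers nearly the whole series. The HET values of the 5 genes are therefore given for each HET array. TCP15 had intensities of 86 and 68.8 in T14, 198.2 and 244 in CON, 205.9 and 204.1 in T13, and 188.2 and 221.8 in HET. HET thus overlapped CON although it is labelled as carrying an insertion in TCP15, and TCP14 was not analysed here, so neither the HET nor the T13 label could be checked through its targeted gene. Of 23 floral identity and meristem genes, 4 had a named probe set (PTL, SPL, UFO and CLV3), with no intensity above 26.9, all under the filter. Among flower parts the labelled tissue could thus be checked through anther and ovule markers only. Of these, 3 tapetum genes, 8 of 10 pollen genes and 2 ovule genes passed the filter. Of 12 leaf photosynthesis genes only RCA had a named probe set. It was at 2314 and 2405 in CON, 2421 and 1922 in T13, 3396 and 2416 in T14, and 3140 and 3162 in HET. Its log2 difference of HET from CON was 0.415 and did not pass (limma adjusted p = 0.893).

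All 5 genes were higher on both HET arrays than on every one of the 6 other arrays. Such a pattern was shown by 4.45% of all 15045 probe sets. Both HET arrays were above both CON arrays for 16.8% of probe sets, and 0.0465% were called higher in HET (7 of 15045), the 5 genes among them, with 1.07% called in either direction. The number called higher hung on single arrays and settings: by limma it was 0 without HET replicate 1 (671 probe sets at an unadjusted p under 0.05, both directions) and 0 with the GAPDH ratio as a covariate (588), 2 without CON replicate 1, 1 with the scanner background as covariate, 3 without the filter, 4 without CON replicate 2 or HET replicate 2, 10 and 11 without T14 replicate 1 and 2, and 14 with the CON and HET arrays alone. These shares describe the contrast that chose the genes, and nothing is read from them. The members' log2 difference of HET from CON ran from 0.99 to 2.25 with a median of 1.19, against a median of 0.00231 over all probe sets.

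**Figure D1:**
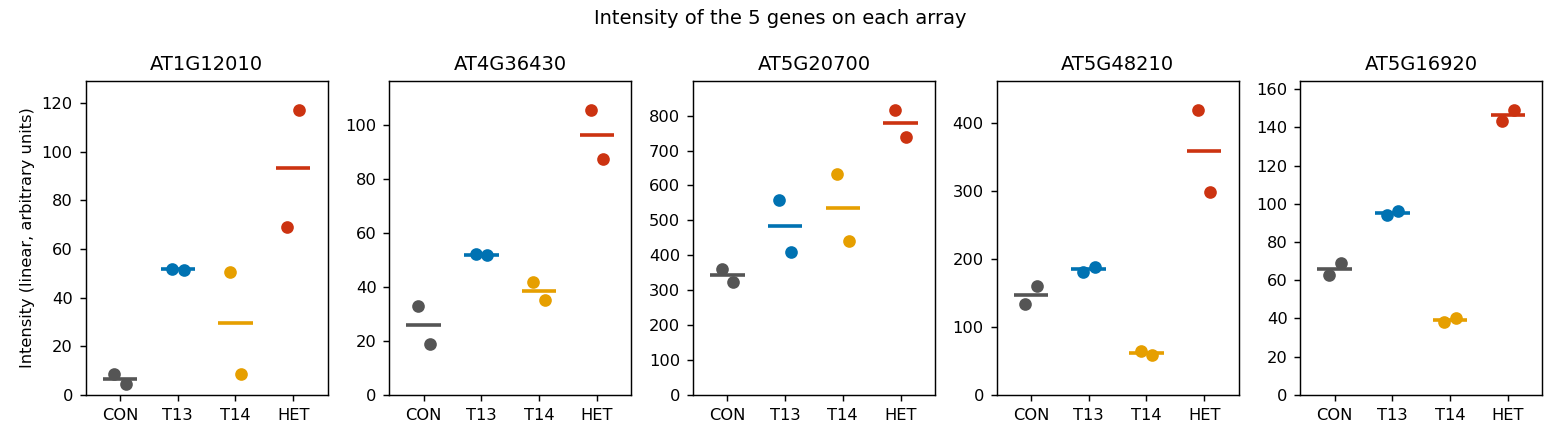
Intensity (linear, from 0) of the 5 genes on each array, with 2 points per group (replicate 1 on the left, replicate 2 on the right) and a bar at the mean. Both HET points are the highest in every panel, both T13 points lie between CON and HET, and the T14 points are the lowest for AT5G48210 and AT5G16920 only.

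AT1G12010, the ACC oxidase, was measured at 8.5 and 4.6 in CON, 52 and 51.2 in T13, 50.7 and 8.8 in T14, and 69.2 and 117.4 in HET. Both HET arrays were high, replicate 2 more so, and 1 of the 2 T14 arrays stood at the level of the controls. In CON the gene lay well below the 40th percentile of each array, 39.9 and 36.4, and the sources used here hold no detection call for it. The lower HET value was 8.14 times the higher CON value and 1.33 times the highest of the 6 other arrays. The log2 difference from CON was 2.25 (SE 0.414) in HET, 1.59 in T13 and 0.86 in T14. Its size hung on the pseudocount more than that of any other member, from 1.68 with 32 added to 3.64 with 1 added, because the CON values are small. HET replicate 1 alone differed from CON by 1.92 and HET replicate 2 alone by 2.57. The T14 difference was 1.57 for replicate 1 and 0.14 for replicate 2, so the T14 mean describes neither array.

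AT4G36430, the peroxidase, had intensities of 33 and 18.7 in CON, 52.2 and 51.8 in T13, 42 and 35.3 in T14, and 105.8 and 87.3 in HET. The 4 groups did not overlap, in the order CON, T14, T13, HET. The step from the higher CON array to the lower T14 array was only 1.07-fold and smaller than the gap between the CON arrays. The lower HET array was 2.65 times the higher CON array. The log2 difference from CON was 1.44 (SE 0.239) in HET, 0.72 in T13 and 0.40 in T14. HET replicate 1 alone gave 1.56 and replicate 2 alone 1.32. Leaving out CON replicate 2, the dimmer control, brought the HET difference to 1.20.

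AT5G20700 was measured at 362.1 and 324.3 in CON, 558.4 and 409.7 in T13, 631.6 and 440.1 in T14, and 817.5 and 740.1 in HET. HET was again high on both arrays, CON low on both, and T13 and T14 overlapped between them with wide gaps between their own arrays. The mean was 343 ± 26.7 in CON, 484 ± 105 in T13, 536 ± 135 in T14 and 779 ± 54.7 in HET (SD, n = 2). The lower HET array was 1.17 times the highest T14 array, the narrowest margin of the 5 genes. The log2 difference from CON was 1.15 (SE 0.238) in HET, 0.46 in T13 and 0.60 in T14, with 1.22 and 1.08 for the HET arrays taken singly.

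AT5G48210 had intensities of 133.2 and 159.5 in CON, 181.3 and 188.7 in T13, 63.9 and 58.6 in T14, and 419.5 and 298.2 in HET. The groups were fully separated, with T14 lowest, then CON, T13 and HET. The log2 difference from CON was 1.19 (SE 0.21) in HET, 0.31 in T13 and -1.07 in T14. The HET arrays differed from each other more than those of any other group, giving 1.43 for replicate 1 and 0.96 for replicate 2. With the GAPDH ratio as a covariate the HET difference was 0.88.

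AT5G16920 was measured at 62.7 and 69.1 in CON, 93.9 and 96.4 in T13, 38.3 and 40.5 in T14, and 143.5 and 149.3 in HET. It followed the same order of groups, with the closest agreement within groups of the 5 genes in HET, T14 and CON. The mean was 65.9 ± 4.53 in CON, 95.2 ± 1.77 in T13, 39.4 ± 1.56 in T14 and 146 ± 4.1 in HET (SD, n = 2). The log2 difference from CON was 0.99 (SE 0.177) in HET, 0.44 in T13 and -0.56 in T14. The HET arrays taken singly gave 0.96 and 1.01, and the GAPDH covariate 1.00.

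**Figure D2:**
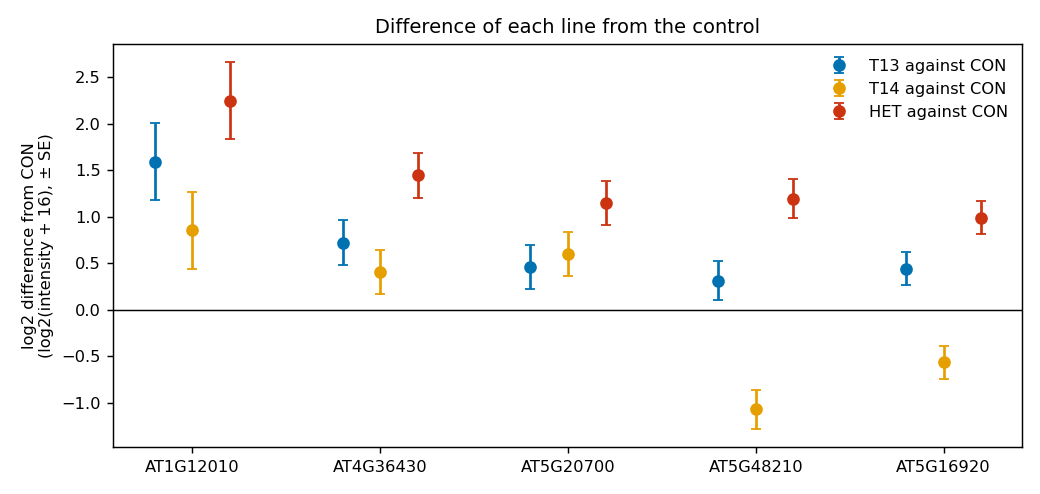
Log2 difference from CON on the log2(intensity + 16) scale for T13, T14 and HET, with bars of ± 1 SE from the limma fit. HET lies highest for each gene (0.99 to 2.25), T13 lies above 0 for each (0.31 to 1.59), and T14 lies below 0 for AT5G48210 and AT5G16920 (-1.07 and -0.56).

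The 5 genes shared the position of T13. On every array T13 stood above both controls and below both HET arrays for all 5, an order held by 0.891% of all probe sets (T13 above CON alone by 22.5%) and by 5.3% of the 2530 whose HET arrays both lay above both CON arrays. Over all probe sets 0.592% were called in T13 against CON, 0.00665% higher and 0.585% lower. The T13 difference from CON had a median of 0.46 over the members, against 0.05 over all probe sets, and HET exceeded T13 by 0.55 to 0.88. These comparisons share arrays with the choice of the genes and with each other.

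They parted in T14. AT4G36430 and AT5G20700 lay above both controls on both T14 arrays, as did 19.6% of all probe sets and 34.8% of those 2530. AT1G12010 was above the controls on T14 replicate 1, while on replicate 2 its 8.8 cannot be ranked against the 8.5 of a CON array so far under the filter. AT5G48210 and AT5G16920 were lower on both T14 arrays than on the 6 other arrays, as were 3.42% of all probe sets, 15.8% being below the CON arrays. In T14 against CON 0.0199% were called, all of them lower. Having both T14 arrays lowest and both HET arrays highest of the 8 was found for 69 probe sets, 0.459% of all and 2.73% of the 2530. From T14 to HET, AT5G48210 spanned a log2 difference of 2.26 and AT5G16920 one of 1.55.

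T13 against T14 was the comparison in which the members were tested. AT5G48210 was higher in T13 by 1.38 (SE 0.21, limma adjusted p = 0.0244) and AT5G16920 by 1.00 (SE 0.177, limma adjusted p = 0.0358), each on both arrays. Fitted to the T13 and T14 arrays alone, the only version without CON or HET arrays in its SE, neither passed (limma adjusted p = 0.0802 for AT5G48210 and 0.19 for AT5G16920). That fit kept the filter set on all 8 arrays. With all arrays and no filter, neither passed (limma adjusted p = 0.0851 and 0.133). Across all probe sets 0.12% were called higher in T13 than in T14 (18 of 15045) and 0.379% lower, 0.499% in all. AT1G12010 differed by 0.73 (SE 0.414), AT4G36430 by 0.32 (SE 0.239) and AT5G20700 by -0.14 (SE 0.238), none of which passed (limma adjusted p = 0.999 for each). With SEs of this size a difference of the order seen for AT1G12010 could not be resolved. The sign turned for AT4G36430 with scanner background as a covariate (-0.00188) and for AT5G20700 without T13 replicate 2 (0.08) or T14 replicate 1 (0.12). Of 19 alternatives, 13 kept AT5G48210 past the threshold (limma adjusted p between 0.0212 and 0.455) and 5 kept AT5G16920 (between 0.0337 and 0.694). Without T13 replicate 1, T13 replicate 2 or T14 replicate 2, neither passed (AT5G48210 at 1.41, 1.35 and 1.33, AT5G16920 at 1.02, 0.99 and 1.03), and AT5G16920 did not pass without any of the other 5 arrays either. The size stayed between 1.22 and 1.58 for AT5G48210 and between 0.83 and 1.25 for AT5G16920. With scanner background as a covariate, which was 98.49 and 111.9 on the T13 arrays and 84.9 and 85.12 on the T14 arrays, neither gene passed (1.47 and 1.07).

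**Figure D3:**
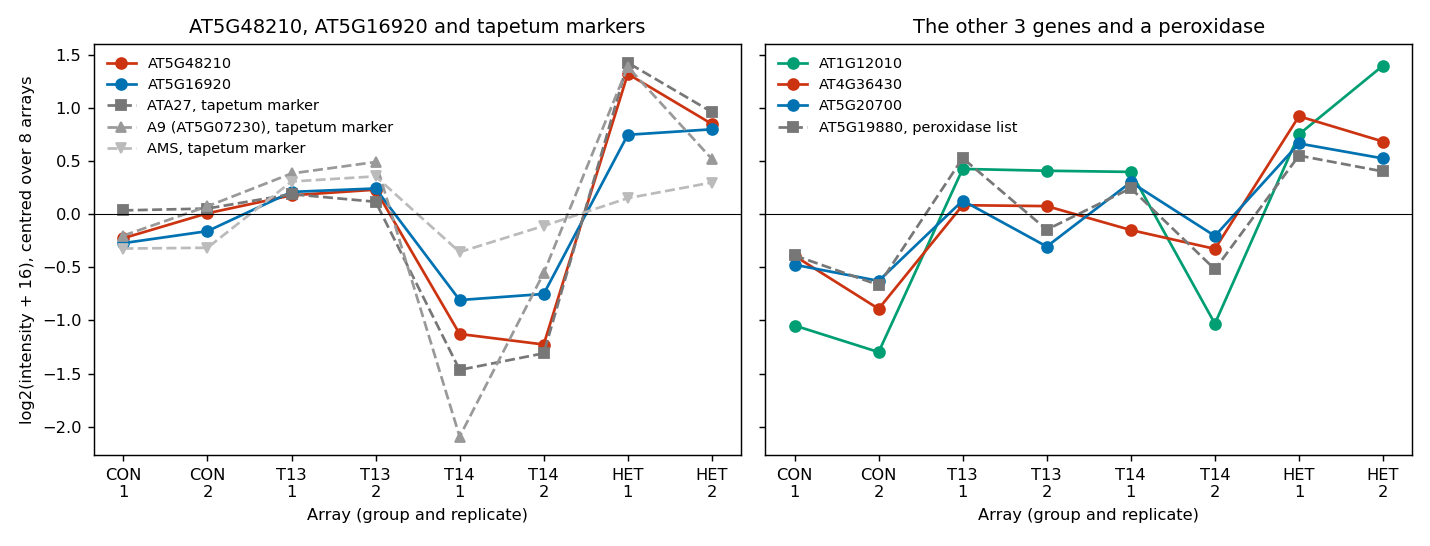
Log2(intensity + 16) on each array, centred on the mean of the gene over the 8 arrays, for AT5G48210 and AT5G16920 beside 3 tapetum markers (left), and for AT1G12010, AT4G36430 and AT5G20700 beside the peroxidase AT5G19880 (right). The left members dip on both T14 arrays together with ATA27 and A9, and the right members do not share that dip, apart from AT1G12010 on T14 replicate 2.

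Patterns were compared by the root mean square difference of the centred log2 values over the 8 arrays, where 0 means the same pattern. Among genes with a probe set of their own that passed the filter, the nearest to AT5G48210 was ATA27, a beta-glucosidase of the tapetum, at 0.169, followed by AT1G02813 at 0.282. The median over all probe sets was 0.856. ATA27 was at 207.2 and 209.9 in CON, 232.1 and 220.1 in T13, 62.9 and 71.9 in T14, and 568.7 and 407.8 in HET, so it was low and high on the same arrays as AT5G48210. The nearest to AT5G16920 were sks18 at 0.214 and AT5G13380 at 0.229, with a median of 0.615 over all, and the 2 members themselves lay 0.294 apart.

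The other 3 genes had other neighbours in pattern. The nearest to AT4G36430 was AT5G20700, also a member, at 0.258, and next came the peroxidase AT5G19880 at 0.297 (median over all 0.592). AT5G19880 was also the nearest to AT5G20700, at 0.201, with NDB2 at 0.202 (median over all 0.5). AT1G12010 had no close match, the nearest being AT4G36430 at 0.519 and AT4G35690 at 0.545, against a median of 0.949 over all. AT1G12010 and AT5G48210 were the least alike pair of members, at 0.826. These likenesses include the HET and CON arrays that chose the members, which draws members together.

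Of the tapetum markers measured, ATA27 and A9 had the same order of group means as AT5G48210 and AT5G16920, and AMS did not. Of 22 tapetum genes listed, 3 had a named probe set and all 3 passed the filter. Their summed intensity was 387.2 and 426.4 in CON, 519.9 and 530.1 in T13, 116.1 and 220.9 in T14, and 1110 and 720.8 in HET. The sum, carried by the brighter ATA27 and A9, had the same order of groups as these 2 members. AMS was at 23.6 and 23.8 in CON, 45.3 and 47.4 in T13, 22.7 and 29.9 in T14, and 39 and 44.9 in HET, with no dip in T14 and with T13 above HET. In HET against CON, ATA27 was called higher (log2 1.15, limma adjusted p = 0.0187), while A9 (AT5G07230), a gene of the tapetum, had 1.02 and AMS, a transcription factor of tapetum development, 0.54, and neither passed (limma adjusted p = 0.662 and 0.824). ATA27 did not pass in that contrast without CON replicate 1, CON replicate 2 or HET replicate 1 (log2 1.14, 1.16 and 0.92), nor with the GAPDH or the background covariate (0.92 and 1.15). In bulk inflorescences more cells of a type and more RNA per cell cannot be told apart, and the part of the tapetum in the values of AT5G48210 and AT5G16920 was not tested.

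Markers of pollen moved the other way. Of 28 pollen genes, 10 had a named probe set, with a summed intensity of 1771 to 1897 in CON, 594.8 to 667.2 in T13, 1263 to 2062 in T14 and 315.3 to 459.2 in HET. Of the 8 that passed the filter, 0 lay above 0 in HET against CON, compared with 50.5% of all probe sets, and their median log2 difference was -1.83. Of the 8, ANX2 and AT2G21480 reached the filter on both CON arrays and T14 replicate 2 only. Without the CON arrays, where they were high, they would not have been kept, so counts over the 8 lean on the filter. By limma 5 of the 8 were called lower, ANX2 included, against 1.02% of all probe sets. Among these 5 were AT2G15880 (-2.19), AT5G45880 (-2.20), AT4G39110 (-1.87) and AT3G19020 (-2.32) (limma adjusted p from 0.00101 to 0.00687). With the GAPDH covariate none of these 4 passed (limma adjusted p from 0.0702 to 0.218). Neither AT4G39110 nor AT3G19020 passed without the filter or with scanner background as a covariate. AT4G39110 also did not pass without HET replicate 1 or either CON array, and AT3G19020 without HET replicate 1 or CON replicate 1. On the HET arrays AT2G15880 was at 6.3 and 7.4, AT5G45880 at 219.7 and 280.4, AT4G39110 at 6.6 and 24.5, and AT3G19020 at 3.7 and 31.8. The part of the pollen difference in the members' values was not tested. The ovule gene BAN had a log2 difference of -2.35 in HET and INO one of 0.02, and neither passed (limma adjusted p = 0.156 and 0.999). BAN was at 62.3 and 90.2 in CON and at 1.7 and 2.2 in HET. It reached the filter on both CON arrays and T14 replicate 1 only, so without the CON arrays it would not have been kept. It was as low in T13, at 3.8 and 3.3 (log2 -2.22 from CON). BAN was at 115.8 and 9.3 on the T14 arrays, and it passed in 3 of 19 alternatives, with the CON and HET arrays alone or without either T14 array (lowest limma adjusted p = 0.00165).

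The rest of the ethylene pathway could be followed only in small part. Of 23 genes of ethylene synthesis, AT1G12010 was the only one with a named probe set, so the other ACC oxidases and the ACC synthases were not analysed here. Of 16 genes of perception and signalling, 2 were measured. EIN3, a transcription factor at the head of the ethylene response, was at 219.8 and 227.9 in CON and 270.1 and 230.5 in HET (log2 0.15, limma adjusted p = 0.988, and -0.03 with the GAPDH covariate). RTE1, which acts on the receptor ETR1, was at 115.7 and 146.4 in CON and 117.3 and 95.8 in HET (log2 -0.26, limma adjusted p = 0.982). Of 20 response genes, the growth gene ARL was at 176.1 and 148.1 in CON and 105.9 and 125.4 in HET (log2 -0.44, limma adjusted p = 0.84), and the defensin PDF1.2 stayed at or below 24.2 on every array, under the filter. Apart from AT1G12010, 0 of the 3 kept ethylene genes were called in HET, T13 or T14 against CON by limma. Over all probe sets 1.07%, 0.592% and 0.0199% were called, so that count says nothing about the pathway. Among the 3 genes, 1 unadjusted p under 0.05 was seen, for ARL in T14. Over all 15045 probe sets, 875 had such a p in T14. With 1 listed gene of senescence and salicylate measured, WRKY53 at 13.8 to 34.4, that list gave no test.

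The class III peroxidases were the one family of a member with broad coverage. Of 73 genes, 55 had a named probe set and 24 passed the filter. Apart from AT4G36430, whose call in HET against CON is the reason for its choice, 0 of 23 were called higher by limma. Only 7 of all 15045 probe sets (0.0465%) were called higher, so that count says nothing about the family. AT5G47000 was called lower, as were 1.02% of all probe sets. An unadjusted p under 0.05 was found for 4 of the 24, AT4G36430 and AT5G47000 included, against 958 of all 15045 probe sets. Without AT4G36430 the family's median log2 difference was 0.15, and 16 of 23 lay above 0, against 50.5% of all probe sets. AT5G47000 stood at 339.6 and 306.9 in CON and fell to 35.6 and 43.2 in HET (log2 -2.62, limma adjusted p = 0.000219), and it passed in 19 of 19 alternatives. It also fell in T13, to 82.2 and 64 (log2 -1.94, limma adjusted p = 0.00400), and stood at 195.6 and 270 in T14.

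Among the other peroxidases, AT5G19880 came nearest to the pattern of AT4G36430. It was measured at 39.3 and 29.6 in CON, 88.3 and 49.4 in T13, 69.7 and 34.5 in T14, and 90 and 79.6 in HET, with overlap between T13 replicate 1 and HET. Its log2 difference in HET was 1.00 (SE 0.295) and did not pass (limma adjusted p = 0.281). AT1G44970, at 448.1 and 281.9 on the HET arrays, had 0.73 and PRXR1, at 799.4 and 868.2, had 0.51, and neither passed (limma adjusted p = 0.7 and 0.879). The 31 named peroxidases below the filter had no intensity above 79. In T13 against CON and in T14 against CON, 0 of the 24 were called higher by limma. Over all 15045 probe sets 1 was called higher in T13 (0.00665%) and 0 in T14, so these counts say nothing about the family. An unadjusted p under 0.05 was found for 3 in T13, of which AT5G47000 was lower and AT4G36430 and AT5G19880 were higher, and for 0 in T14. Over all 15045 probe sets it was found for 901 in T13 and 875 in T14.

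**Figure D4:**
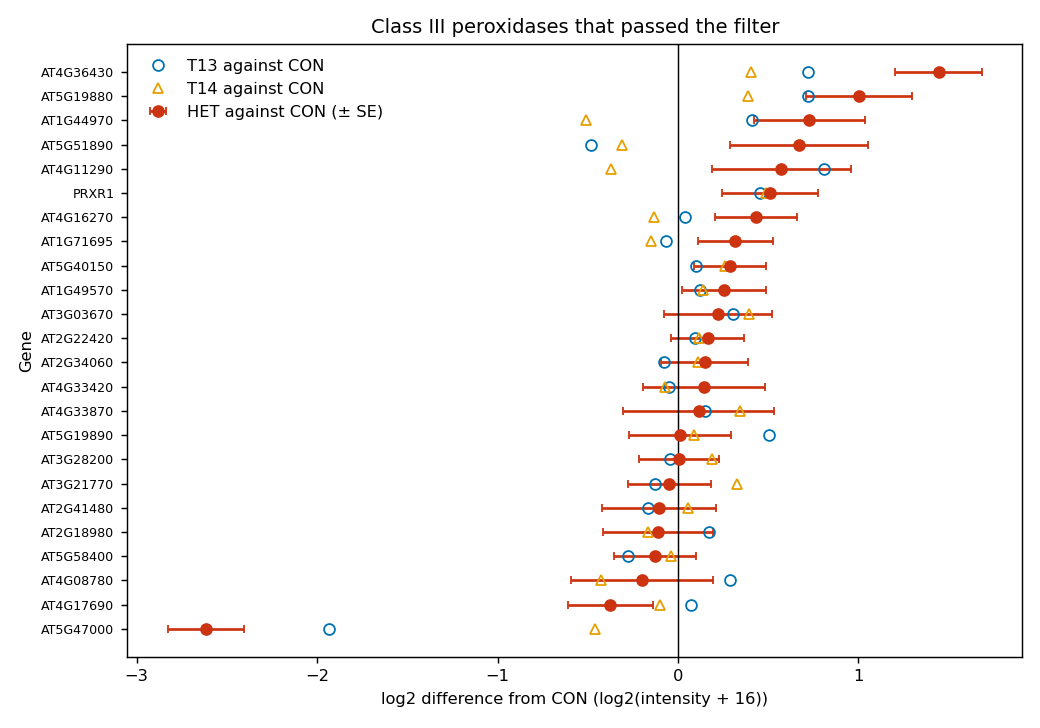
Log2 difference from CON of the 24 class III peroxidases that passed the filter, in order of the HET difference (filled, ± SE), with T13 (circles) and T14 (triangles). AT4G36430, which this difference chose, has 1.44 and AT5G47000 has -2.62, and the other 22 lie between -0.38 and 1.00.

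Where kept, the genes next to the members on the chromosome differed less between HET and CON than the members, which were chosen on that difference. The members lie on chromosomes 1, 4 and 5. For each, the closest gene on either side with a named probe set was taken, 1 to 4 protein-coding genes away in the RefSeq order. Of these 10 neighbours, 8 passed the filter, with log2 differences of HET from CON between -0.10 (AT4G36420, beside AT4G36430) and 0.35 (AT5G48220, beside AT5G48210). None passed the test (limma adjusted p from 0.974 to 0.998). Over all probe sets only 1.07% were called in either direction, so the absence of calls says nothing particular about these neighbours. AT1G12000, directly beside AT1G12010, was at 346.9 and 278.3 in CON and 399.7 and 229.8 in HET (log2 -0.03). CSLD2, a cellulose synthase-like gene directly beside AT5G16920, was at 127.1 and 147.6 in CON and 129.9 and 165.4 in HET (log2 0.09).

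The 5 genes were 5 of 7 probe sets called higher in HET. The remaining ones were ATA27 and 252063_at, which has no gene in the annotation used here and was at 162.1 and 242.2 in CON, 296.5 and 232.3 in T13, 43.3 and 49.1 in T14, and 766.5 and 498.7 in HET. It too was lowest in T14. Of the 7, AT5G20700 lay closest to the threshold, with a log2 difference of 1.15. The named genes just outside it were AT4G14930 (0.84), SHT, a spermidine hydroxycinnamoyl transferase (1.19), and AT1G28375 (1.03).

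The filter kept AT5G20700 and AT5G48210 on all 8 arrays and AT5G16920 on 7. AT1G12010 and AT4G36430 reached the 40th percentile on 5 arrays, both T13, 1 T14 and both HET, and on neither CON array, so they would have been kept without the HET arrays. Over 18 alternatives for AT1G12010 and 19 for each other gene, the HET difference from CON stayed above 0. It ran from 1.16 to 1.91 for AT4G36430, 0.98 to 1.22 for AT5G20700, 0.88 to 1.43 for AT5G48210 and 0.87 to 1.14 for AT5G16920. As the groups did not overlap by the choice of the genes, that sign is no sign of stability.

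**Figure D5:**
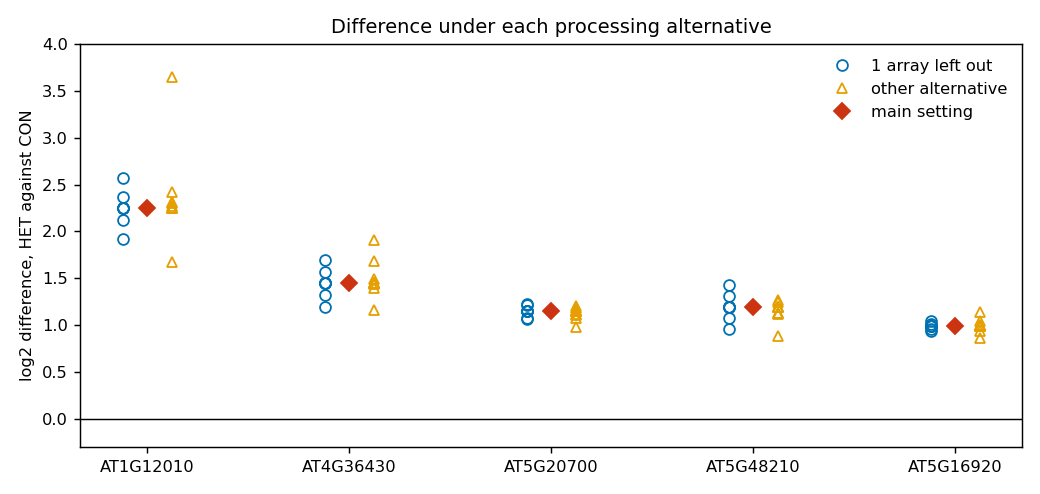
Log2 difference of HET from CON for the 5 genes in the main setting (diamonds), with 1 array left out (circles) and under the other alternatives (triangles). The widest range is that of AT1G12010, from 1.68 to 3.64, which comes from the pseudocount, and the narrowest are those of AT5G20700 and AT5G16920.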

How the data were processed

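Each array has 1 deposited intensity value a probe set, linear in scale, in the table of the authors. Which software summarised the probes is not stated there or in the labels. Deposited intensities had a 2%-trimmed mean of 100 on every array and were left at that scale (array medians 51.35 to 59.5). Probe sets were named by GEO's platform annotation, with symbols updated to RefSeq (TAIR10.1) by Entrez identifier: 13513 had 1 gene, 503 several and 8794 none, and 13436 matched a locus tag. Coordinates are not printed, because the files name no build. Kept were probe sets at or above their array's 40th percentile on 2 or more arrays, without the 64 control probe sets. After adding 16 and taking log2, limma 3.58.1 in R 4.3.3 was fitted (lmFit, then eBayes with an intensity trend) to all 8 arrays, with 4 residual and 7.39 prior degrees of freedom and Benjamini-Hochberg adjustment over 15045 probe sets. The fit was tested on simulated data, with rises placed in HET on brighter probe sets. In HET against CON, 54 of 100 rises of 2-fold and 100 of 100 of 4-fold were recovered, with 11 false calls. A change near 2-fold can thus fail to pass. The number of arrays limits the precision.

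The members, the lists, the tests and the alternatives (pseudocount, filter, normalization, variance prior, weights, covariates, arrays left out) were chosen with earlier results of these data known. Named were the members, TCP15, the other probe sets called higher in HET and the next 3 named ones, up to 4 kept genes per list with the smallest p in HET against CON, chromosome neighbours, and the 2 most similar patterns per member. PTL, SPL, UFO, CLV3, PDF1.2 and WRKY53, which were not kept, were named beside their lists after their values were seen. ANX2 and AT2G21480 were named, also after their values were seen, for the arrays on which they reached the filter. The reference tables describe no gene family, so families were taken by locus list. Figures were drawn with matplotlib 3.10.9.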

Additional observations from a re-analysis of the deposited data

Results flagged for a closer look

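T13 and T14 differed from each other, by the limma test of that difference, in 6 of the probe sets named here. The log2 difference of T13 from T14 was 1.38 for AT5G48210, 1.00 for AT5G16920, 1.54 for ATA27, 2.16 for 252063_at, 1.25 for TCP15 and -1.47 for the peroxidase AT5G47000. AT5G48210, AT5G16920, ATA27 and 252063_at are 4 of the 7 probe sets called higher in HET against CON. TCP15 is the gene with the insertion in T14. With the T13 and T14 arrays alone 4 probe sets were called, all 4 higher in T13. AT5G48210, AT5G16920, TCP15 and AT5G47000 did not pass there. None of the 6 passed without the filter or with scanner background as a covariate, where limma called 0 probe sets. The GAPDH control, which entered the comparisons only as a covariate in an alternative, had a 5' to 3' intensity ratio of 0.345 on HET replicate 1, while the CON arrays were at 0.086 and 0.129. The excess of 3' signal was thus smaller on HET replicate 1.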

How the results depend on the processing

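No paired analysis was possible because the labels carry no replicate number. In HET against CON, 161 probe sets were called, with 102 under scanner background as a covariate, 52 under the GAPDH ratio as a covariate, and 85 (without HET replicate 1) to 184 with 1 array left out, 104 without CON replicate 2 or HET replicate 2. In T13 against CON, 89 were called, 46 without the filter and 16 (without CON replicate 2) to 109 with 1 array left out, with 37, 44 and 34 without CON replicate 1, T13 replicate 1 and T13 replicate 2. In T14 against CON, 3 were called. There were 0 by limma with a pseudocount of 1, without the filter or with the background covariate (857, 1306 and 450 at an unadjusted p under 0.05), 5 after quantile normalization, 1 without a variance trend, 10 with the compared groups alone, and 0 to 5 with 1 array left out (0 without CON replicate 1 or T14 replicate 1, with 581 and 863 at an unadjusted p under 0.05, 1 without CON replicate 2, 5 without T13 replicate 1). In T13 against T14, 75 were called. There were 0 without the filter or with the background covariate (limma, 1122 and 450 at an unadjusted p under 0.05), 4 with the compared groups alone, 38 with the GAPDH covariate, and 8 to 74 with 1 array left out (8 and 9 without T13 replicate 1 and 2, 15 without T14 replicate 2, 46 without either CON array, 41 without either HET array). Without the filter more probe sets were tested; the cause of the other changes was not tested. The sign turned in T13 against T14 for AT4G36430 with the background covariate (-0.00188) and for AT5G20700 without T13 replicate 2 (0.0798) or T14 replicate 1 (0.117), with a range from -0.389 on leaving out T14 replicate 2, and in HET against CON for EIN3 with the GAPDH covariate (-0.0287) and for INO with the background covariate (-0.252), the GAPDH covariate (-0.0138) or without CON replicate 1 (-0.141, and 0.172 without CON replicate 2), none of them called. Under the filter at the 60th percentile AT1G12010, AMS and AT1G28375 were not kept and have no value.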
